A study of Mus musculus with 20 samples.

Results

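The genes described here encode the machinery that shortens, decaps and degrades messenger RNA, together with RNA-binding proteins that act on it. They were chosen by symbol from a list of 47 genes, and 44 of them were read by a probe set naming that gene alone, out of 22180 genes measured in the series. Cnot1, Cnot3 and Exosc4 are not described, since each was matched only by probe sets that also name another gene. Where a gene had more than 1 such probe set (Dcp1b and Hnrnpd), the brightest over the 20 arrays stood for it.

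Decay of most messenger RNAs begins at the poly(A) tail, which the PAN2-PAN3 and CCR4-NOT complexes remove. The body of the message is then decapped and digested from its 5′ end by XRN1, or digested from its 3′ end by the exosome. Tristetraprolin, the product of Zfp36, binds AU-rich elements of cytokine messages and recruits CCR4-NOT and decapping factors to them, and in skin it restrains inflammatory transcripts. Regnase-1 and the Roquins act on stem-loops of many of the same messages.

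Abdominal skin of 20 mice was profiled on Affymetrix mouse gene arrays, 1 array per animal and 5 animals in each of 4 groups. All 4 groups carried floxed Zfp36 alleles. Control mice (zfp36 fl/fl) had no Cre, and knockout mice (zfp36 fl/fl K14 cre) also had Cre under the keratin 14 promoter, so that deletion is aimed at keratinocytes while other skin cells keep the gene. Each genotype received either a mock preparation or topical imiquimod, an agonist of Toll-like receptor 7 that causes psoriasis-like inflammation in mice, on 5 consecutive days, and skin was taken 4 hours after the last application. The sources used here do not state age, sex or strain background. The arrays read whole skin, so fewer cells of a type and less RNA per cell cannot be told apart.

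Values were taken as log2, and array medians lay between 4.94 and 5.04. The 12 measured keratinocyte markers had a mean log2 value of 9.36 to 10.2 on every array, but single markers of the list changed. With imiquimod 5 rose and 1 fell in controls (differences from -1.16 to 2.63 over the list). In knockouts 5 rose and 2 fell (-2.27 to 1.93). Under imiquimod 1 marker was lower in knockouts than in controls. Zfp36 itself, read by 1 probe set, lay at 7.22 to 7.74 in mock-treated controls and 3.47 to 7.12 in mock-treated knockouts. Under imiquimod it lay at 7.68 to 8.40 and 5.47 to 7.41. The genotypes did not overlap in either treatment (log2 difference -2.03 and -1.60, exact two-sided permutation p = 0.00794 for each, the smallest that 5 arrays against 5 can give), although Zfp36 did not pass in limma over all genes (adjusted p = 0.999 and 0.221). The sources used here do not state whether its probes lie in the floxed segment. Markers of hair shaft, proliferation and other cell types varied between arrays and are given below.

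Promoter windows of 5 members called with imiquimod are shown, picked in part because they differ in the motifs they hold. They are Zc3h12a, with the largest rise, Rc3h1 and Parn, which fell, and Exosc1 and Dis3, exosome genes that rose in knockout skin. The calls on Exosc1 and Dis3 ended when single arrays were left out, as given below. Each window runs from 250 bases before to 50 bases after the RefSeq start, in the direction of the gene, from assembly GRCm38.p6. Capitals mark matches, on either strand, to any of 5 motifs searched: an NF-kB motif (GGGA, any base, TTTCC), an AP-1 motif (TGANTCA), a STAT motif (TTCCNGGAA), an ETS motif (CCGGAAG) and the CCAAT box (CCAAT).
Zc3h12a, chr4:125127832-125128131, minus strand: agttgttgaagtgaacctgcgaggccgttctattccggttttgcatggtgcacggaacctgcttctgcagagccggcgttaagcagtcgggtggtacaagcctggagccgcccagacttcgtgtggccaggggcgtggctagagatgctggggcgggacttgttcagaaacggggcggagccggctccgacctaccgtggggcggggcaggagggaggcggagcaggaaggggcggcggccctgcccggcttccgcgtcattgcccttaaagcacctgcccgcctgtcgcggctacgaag
Rc3h1, chr1:160906161-160906460, plus strand: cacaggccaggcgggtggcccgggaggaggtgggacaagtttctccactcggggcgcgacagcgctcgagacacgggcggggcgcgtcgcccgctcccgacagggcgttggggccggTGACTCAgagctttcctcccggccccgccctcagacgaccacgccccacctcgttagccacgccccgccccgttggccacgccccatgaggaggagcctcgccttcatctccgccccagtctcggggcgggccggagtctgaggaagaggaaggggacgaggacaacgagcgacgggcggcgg
Parn, chr16:13668121-13668420, minus strand: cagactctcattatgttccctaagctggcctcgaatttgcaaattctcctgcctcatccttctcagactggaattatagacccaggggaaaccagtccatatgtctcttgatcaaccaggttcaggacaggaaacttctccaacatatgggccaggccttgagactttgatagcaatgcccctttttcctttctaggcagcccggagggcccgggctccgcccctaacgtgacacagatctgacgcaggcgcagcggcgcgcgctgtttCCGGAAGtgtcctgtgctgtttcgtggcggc
Exosc1, chr19:41933265-41933564, minus strand: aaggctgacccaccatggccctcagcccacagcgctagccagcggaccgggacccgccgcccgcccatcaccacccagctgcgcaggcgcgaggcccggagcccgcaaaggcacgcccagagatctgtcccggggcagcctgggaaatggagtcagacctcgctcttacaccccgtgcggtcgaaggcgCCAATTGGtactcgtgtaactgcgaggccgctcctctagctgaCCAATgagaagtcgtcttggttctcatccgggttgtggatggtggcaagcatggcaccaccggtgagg
Dis3, chr14:99099721-99100020, minus strand: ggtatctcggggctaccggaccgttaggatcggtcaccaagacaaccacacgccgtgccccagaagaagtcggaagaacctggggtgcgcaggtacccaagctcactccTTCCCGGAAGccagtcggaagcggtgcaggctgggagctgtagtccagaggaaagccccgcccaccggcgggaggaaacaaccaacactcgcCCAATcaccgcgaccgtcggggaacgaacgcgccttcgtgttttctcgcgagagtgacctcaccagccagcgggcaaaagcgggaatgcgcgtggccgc

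The Zc3h12a window held no match to any of the 5. In Rc3h1 the capitals are an AP-1 match at base 118 of the window, and in Parn an ETS match at base 270, after the start. Exosc1 held CCAAT at bases 190 and 233 and, on the opposite strand and overlapping the first, at base 193. Dis3 held CCAAT at base 202 and a STAT match at base 110 that overlaps an ETS match at base 113. Of the 47 named genes 39 had windows, 47 windows in all. An ETS match was found in 12 of these 47 windows (25.5%), against 8.86% of all 32851 windows of this length, and a CCAAT box in 15 (31.9%), against 37.4%. AP-1 matches were found in 3 windows (6.38%, against 7.81%), a STAT match in 1 (2.13%, against 1.15%) and the NF-kB motif in 0 (against 0.411%). These are counts of letters in a window, and no binding was measured.

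The first comparisons asked which decay genes imiquimod changed in control and in knockout skin. Zc3h12a, which encodes the endonuclease Regnase-1, rose most in both genotypes, and Cnot6l, a CCR4-type deadenylase, also rose in both. Rc3h1 (Roquin-1), Parn, Pan3 and Ddx6 fell in both. Changes other than that of Zc3h12a were small, none reaching 2-fold. In control skin 2 members rose and 4 fell of 44 (13.6%), while 10.8% of all genes tested passed the same threshold (6.47% higher and 4.37% lower). In knockout skin 8 rose and 7 fell (34.1%), against 20.8% of all genes (11.1% higher and 9.71% lower). The median log2 difference over the members was 0.027 in control and 0.091 in knockout skin, and -0.004 and -0.002 over all genes. The median of the members changed sign in some alternative fits, given at the end. The groups did not overlap for 5 members in control skin (11.4%, against 8.35% of all genes) and for 8 in knockout skin (18.2%, against 13.7%). At an unadjusted p under 0.05 there were 13 members in control skin (29.5%, against 23.9%) and 21 in knockout skin (47.7%, against 31.2%). All differences were tested with limma, with Benjamini-Hochberg adjustment over the 22180 genes.

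**Figure D1:**
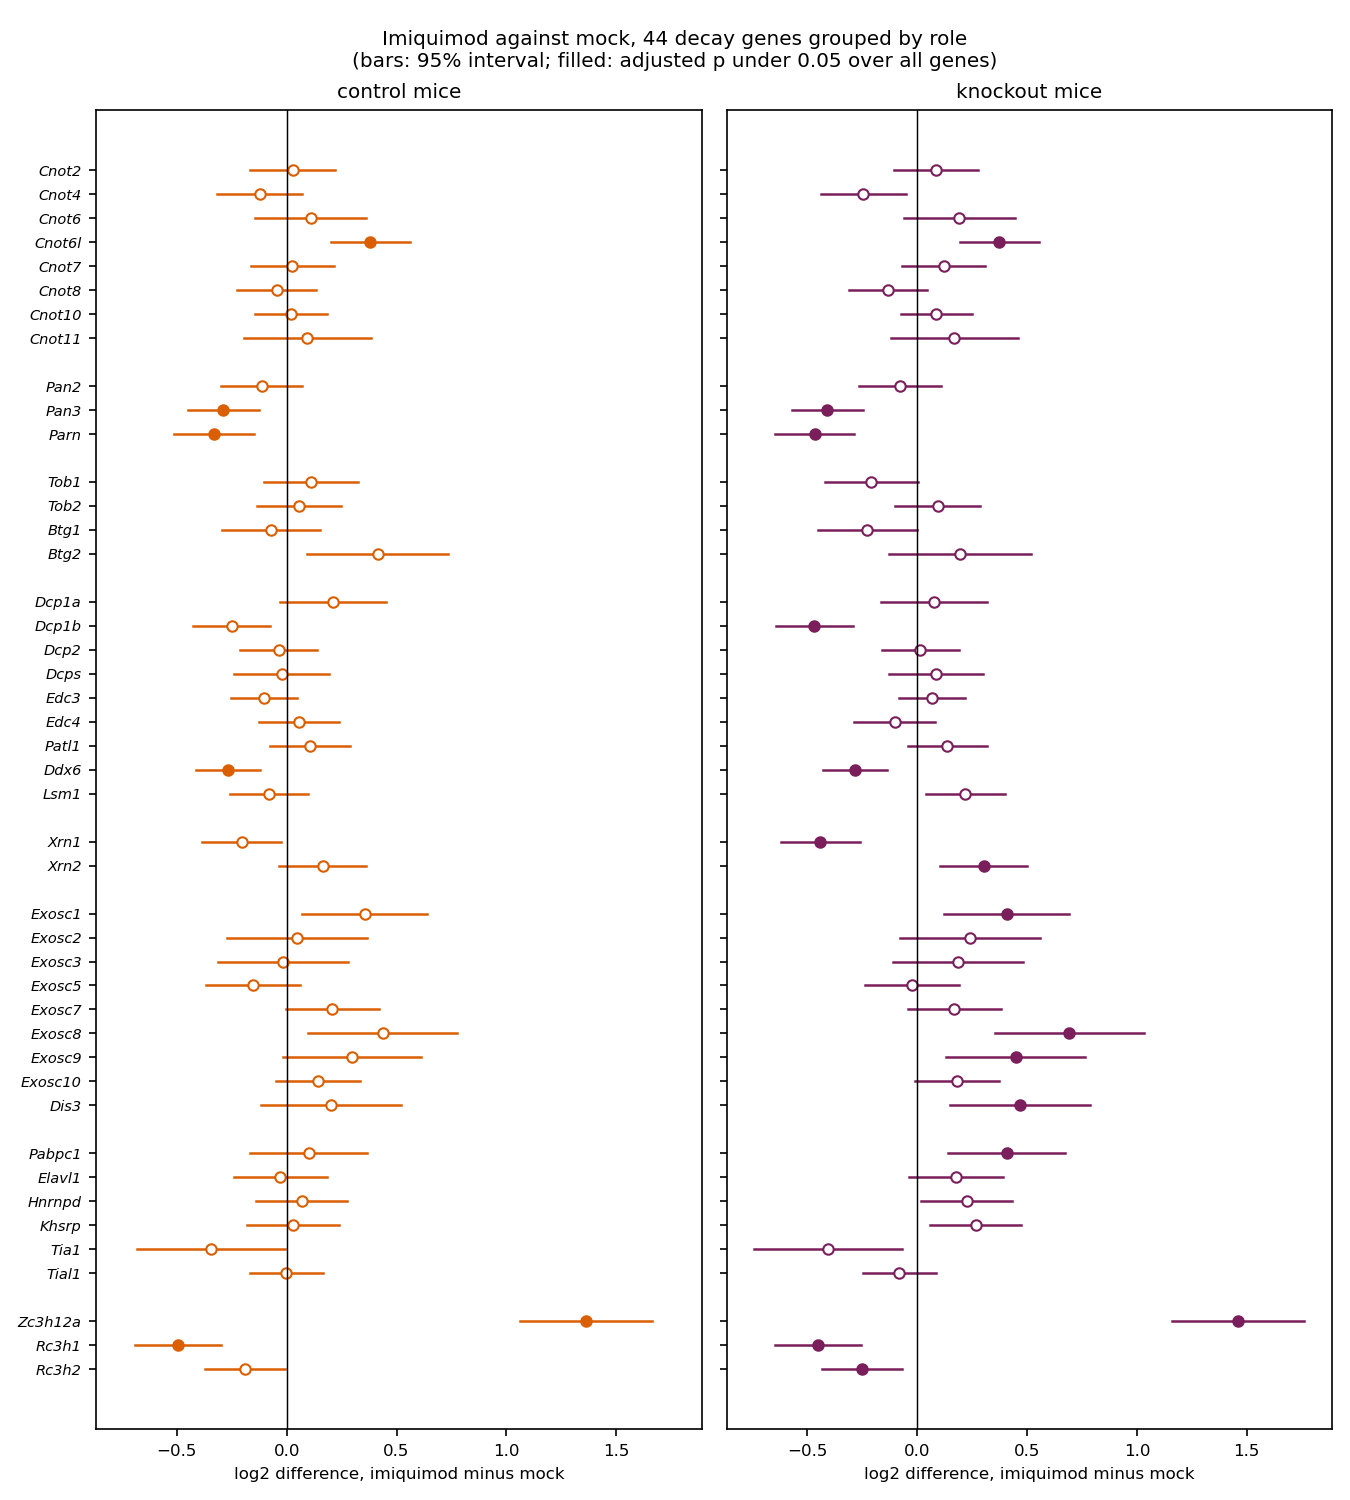
Log2 difference of imiquimod minus mock for the 44 measured decay genes, grouped by role, in control mice (left) and knockout mice (right). Points are differences of group means (5 arrays each), bars are 95% intervals, and filled points passed an adjusted p of 0.05 over all genes. Zc3h12a stands at 1.36 and 1.46, and the other members lie between -0.49 and 0.69.

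The probe sets with the highest and lowest mean over the 20 arrays are named for each role as a description only, since the signal of different probe sets depends on their design and is no measure of relative abundance. Among deadenylase subunits they were Cnot6l (9.18) and Cnot11 (6.39) in CCR4-NOT, and Pan3 (8.90) and Pan2 (7.16) in the second group. Tob1 (8.73) and Tob2 (5.75) bounded the adaptors, Ddx6 (9.73) and Dcps (5.64) the decapping factors, and Xrn2 (8.16) and Xrn1 (7.98) were the exonuclease pair. Exosc1 (8.31) and Exosc5 (5.40) bounded the exosome, Hnrnpd (9.01) and Pabpc1 (7.0) the RNA-binding proteins, and Rc3h1 (8.83) and Zc3h12a (6.89) the last group. Arrays of a group agreed closely for most members: the median SD within groups was 0.14 over the members and 0.18 over all genes, with Ddx6 the least variable (0.09) and Exosc8 the most (0.27).

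Of the 3 members PAN2, PAN3 and PARN, which trim poly(A) tails outside CCR4-NOT, Pan3 and Parn fell with imiquimod in each genotype. Pan3 encodes the adaptor subunit of the PAN2-PAN3 complex. Its log2 values were 9.06, 8.94, 9.12, 9.10 and 8.85 in mock-treated controls and 8.69, 8.70, 8.60, 8.73 and 8.91 in imiquimod-treated controls. In knockouts they were 9.19, 9.20, 8.91, 9.19 and 9.20 with mock and 8.78, 8.69, 8.68, 8.77 and 8.73 with imiquimod. Control arrays overlapped only through replicate 5 of both groups, and knockout arrays did not overlap. The differences were -0.29 ± 0.08 in controls (SE, n = 5 per group, adjusted p = 0.0182) and -0.41 ± 0.08 in knockouts (adjusted p = 0.000678). Leaving out control mock replicate 3 or 4 or control imiquimod replicate 3 ended the call in controls (adjusted p = 0.0513, 0.0508 and 0.0596), as did fitting only the 2 control groups (adjusted p = 0.0591).

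Parn, a poly(A)-specific ribonuclease that also matures small noncoding RNAs, read 7.52, 7.52, 7.50, 7.57 and 7.33 in mock-treated and 7.06, 7.15, 7.08, 7.18 and 7.32 in imiquimod-treated controls. In knockouts it read 7.70, 7.68, 7.59, 7.31 and 7.55 with mock and 7.17, 7.07, 6.91, 7.30 and 7.05 with imiquimod. The treatments did not overlap in either genotype, though the lowest mock and highest imiquimod arrays lay 0.01 apart in each. Parn fell 1.26-fold in control skin (-0.33 ± 0.09, SE, adjusted p = 0.0165) and 1.38-fold in knockout skin (-0.47 ± 0.09, adjusted p = 0.000603). Pan2, the catalytic partner of Pan3, differed by -0.11 and -0.08 and did not pass (adjusted p = 0.505 and 0.628).

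Of the 8 CCR4-NOT members measured, Cnot6l passed in both genotypes and the other 7 in neither. That is 12.5% called, against 10.8% of all genes in controls and 20.8% in knockouts. A further subunit, Cnot9, is given below with the other pathway genes. Cnot6l is 1 of a pair of exchangeable CCR4-type catalytic subunits. Its log2 values were 8.81 to 9.10 in mock-treated and 9.22 to 9.53 in imiquimod-treated controls, and 8.85 to 9.06 and 9.12 to 9.54 in knockouts, with no overlap between treatments. Its rise was 1.30-fold in each genotype, 0.38 ± 0.09 in controls (adjusted p = 0.00576) and 0.37 ± 0.09 in knockouts (SE, 5 arrays per group, adjusted p = 0.0036). The alternative subunit Cnot6 differed by 0.11 and 0.19 (adjusted p = 0.673 and 0.313). The CAF1-type catalytic subunits Cnot7 and Cnot8 differed by 0.03 and -0.05 in controls and by 0.12 and -0.13 in knockouts, none past the test. The ubiquitin ligase subunit Cnot4 lay at -0.12 and -0.25 (adjusted p = 0.491 and 0.0673), and the scaffold and accessory subunits Cnot2, Cnot10 and Cnot11 between 0.02 and 0.17 in both genotypes.

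The Tob and Btg adaptors, antiproliferative proteins that link the CAF1 deadenylase to other factors, gave 0 calls among 4 members in either genotype. Of all genes 10.8% were called in controls and 20.8% in knockouts. Btg2, an early response gene, was the largest: 7.29 to 7.83 in mock-treated and 7.74 to 8.37 in imiquimod-treated controls, a difference of 0.41 ± 0.15 (SE, adjusted p = 0.0951). In knockouts its difference was 0.20 (adjusted p = 0.442). Tob1 differed by 0.11 in controls and by -0.21 in knockouts, and Btg1 by -0.07 and -0.23, none past the test.

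**Figure D2:**
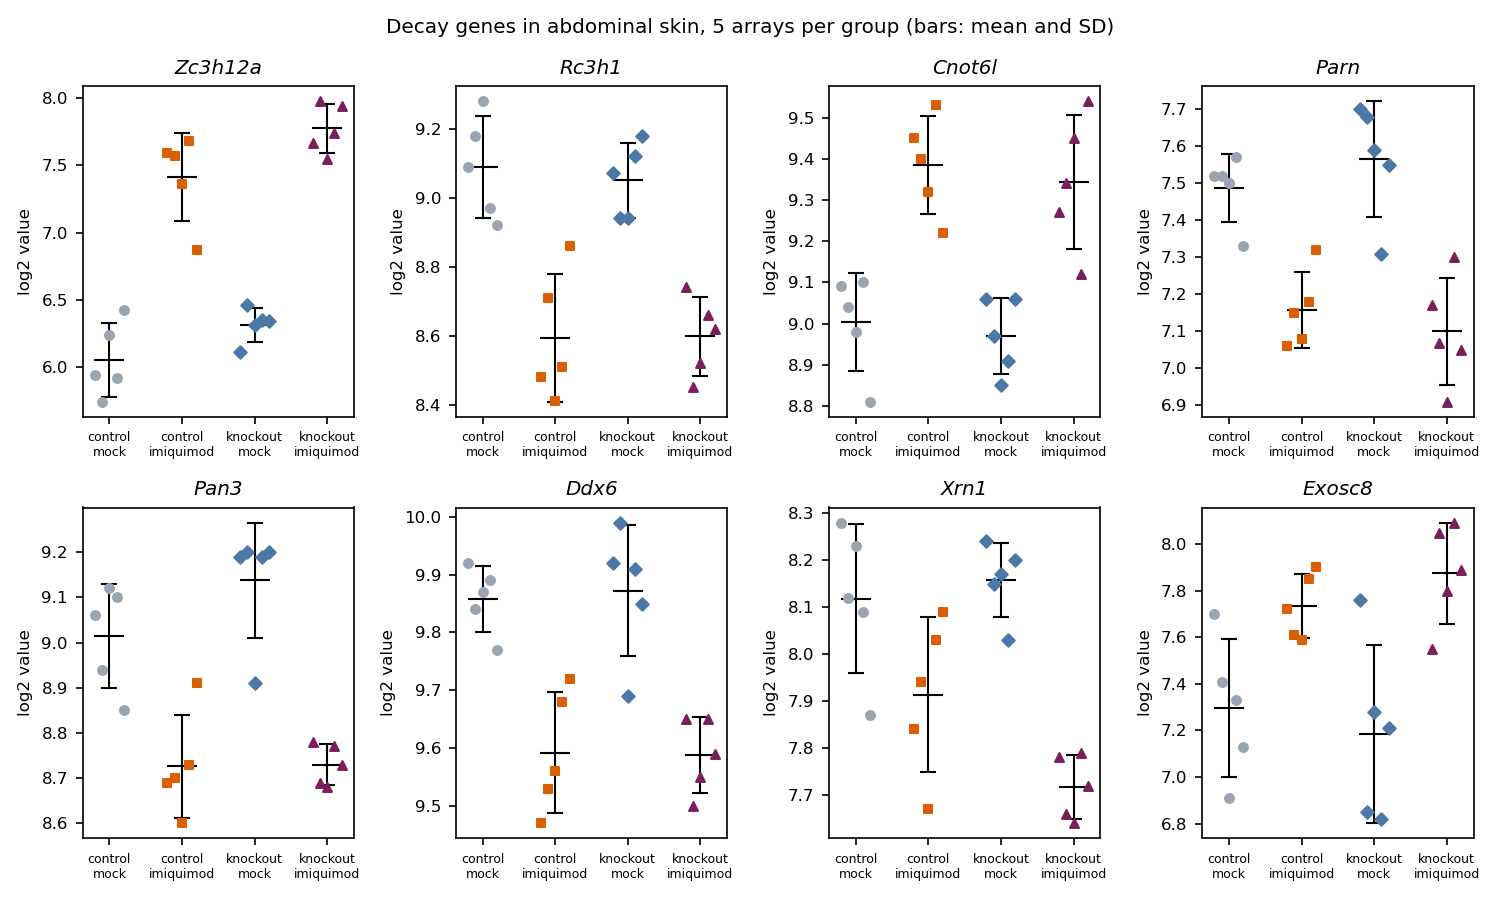
Deposited log2 values of 8 decay genes on each of the 20 arrays, by group, with group mean and SD (bars, n = 5 per group); each panel has its own axis, which does not start at 0. Zc3h12a and Cnot6l are higher with imiquimod in both genotypes, Rc3h1, Parn, Pan3 and Ddx6 are lower in both, and Xrn1 is lower in knockouts (7.64 to 7.79 against 8.03 to 8.24). Exosc8 in knockout skin goes from 6.82 to 7.76 with mock up to 7.55 to 8.09 with imiquimod.

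In decapping, the RNA helicase Ddx6 fell in both genotypes and Dcp1b fell in knockouts, among 9 members. These calls were 11.1% of the members in controls and 22.2% in knockouts, against 10.8% and 20.8% of all genes. Ddx6, which tethers CCR4-NOT and decapping factors and forms P-bodies, read 9.77 to 9.92 in mock-treated and 9.47 to 9.72 in imiquimod-treated controls. In knockouts it read 9.69 to 9.99 and 9.50 to 9.65. Neither pair of groups overlapped, and the differences were -0.27 ± 0.07 (adjusted p = 0.0161) and -0.28 ± 0.07 (SE, n = 5 per group, adjusted p = 0.00568). Without control imiquimod replicate 1 the call in controls ended (adjusted p = 0.0522).

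Dcp1b, a cofactor of the decapping enzyme, read 6.05, 6.09, 6.04, 5.97 and 5.87 in mock-treated knockouts and 5.56, 5.53, 5.50, 5.50 and 5.59 in imiquimod-treated knockouts, with no overlap. It fell by 0.47 ± 0.08 there (SE, adjusted p = 0.000427), and in controls its difference was -0.25 (adjusted p = 0.0619). A second, dimmer Dcp1b probe set gave -0.25 in knockouts and did not pass (adjusted p over all probe sets = 0.137). The catalytic subunit Dcp2 differed by -0.04 in control skin and 0.01 in knockout skin, with 95% intervals inside 0.5 on the log2 scale. The enhancers Edc3, Edc4 and Patl1, the scavenger enzyme Dcps, the cofactor Dcp1a and Lsm1, a subunit of the ring that binds shortened tails, lay between -0.10 and 0.22 in both genotypes without passing.

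The 2 exonucleases that digest RNA from the 5′ end moved in opposite directions in knockout skin. Xrn1, the cytoplasmic enzyme that finishes decay after decapping, read 8.24, 8.15, 8.17, 8.03 and 8.20 with mock and 7.78, 7.66, 7.64, 7.79 and 7.72 with imiquimod in knockouts. These arrays did not overlap, and the difference was -0.44 ± 0.09 (SE, 5 arrays per group, adjusted p = 0.000961). In controls, 7.87 to 8.28 with mock and 7.67 to 8.09 with imiquimod overlapped, a difference of -0.20 (adjusted p = 0.145). Xrn2, its nuclear relative that acts in transcription termination, went from 7.77 to 8.30 with mock to 8.21 to 8.51 with imiquimod in knockouts and rose by 0.30 ± 0.10 (SE, adjusted p = 0.0281), with overlap. Its call ended without any one of 5 knockout arrays (mock replicates 2, 4 and 5, imiquimod replicates 2 and 4), with adjusted p = 0.0517 to 0.0881 and differences of 0.23 to 0.30. It also ended when only the 2 knockout groups were fitted (adjusted p = 0.0663) and without the 4 arrays (1 per group) that stood farthest apart in hair genes (adjusted p = 0.0512).

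Of 9 exosome genes, 4 rose in knockout skin and 0 fell (44.4% called, against 20.8% of all genes, 11.1% higher), and none of the 9 passed in controls. The calls on 3 of the 4 ended when single arrays were left out. The exosome is a ring of noncatalytic subunits with attached nucleases that digests RNA from the 3′ end. Exosc8, a ring subunit, read 7.76, 6.85, 7.28, 6.82 and 7.21 in mock-treated knockouts and 7.55, 8.05, 7.80, 8.09 and 7.89 in imiquimod-treated knockouts. The groups overlapped through replicate 1 of each. Its rise was 1.62-fold (0.69 ± 0.16, SE, 5 arrays per group, adjusted p = 0.00428). In controls, values of 7.70, 7.41, 6.91, 7.33 and 7.13 with mock and 7.72, 7.61, 7.59, 7.85 and 7.90 with imiquimod differed by 0.44 ± 0.16 (adjusted p = 0.0939).

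Of the other exosome genes, Dis3, the catalytic nuclease subunit of the nuclear exosome, rose by 0.47 ± 0.15 in knockouts (adjusted p = 0.0343), from 7.51 to 8.30 with mock to 8.11 to 8.71 with imiquimod. Exosc9 rose by 0.45 ± 0.15 (adjusted p = 0.0394) and Exosc1 by 0.41 ± 0.14 (SE, n = 5 per group each, adjusted p = 0.0379), both ring or cap subunits and both with overlapping groups. In controls these 3 differed by 0.20, 0.30 and 0.36 and did not pass (adjusted p = 0.489, 0.24 and 0.105). Exosc10, the other nuclear exonuclease, differed by 0.14 and 0.18, and Exosc2, Exosc3, Exosc5 and Exosc7 by -0.15 to 0.24 over both genotypes, none past the test. Each of the calls on Dis3, Exosc9 and Exosc1 ended when mock replicate 2 or 4 or imiquimod replicate 2 or 4 of the knockouts was left out. So did those on Exosc1 without mock replicate 5 or imiquimod replicate 3, on Exosc9 without mock replicate 3 or imiquimod replicate 3 or 5, and on Dis3 without mock replicate 3 or 5 or imiquimod replicate 1. In these fits the adjusted p ran from 0.0505 to 0.114 and the differences from 0.33 to 0.48. Exosc1 did not pass either when only the 2 knockout groups were fitted (adjusted p = 0.0721).

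The 4 exosome genes called in knockout skin rose there along with proliferation markers. The part of proliferation in their rise was not tested. Of 12 measured proliferation genes 11 rose in knockout skin with imiquimod and 2 in control skin. The mean of that list was 6.14 to 7.47 in mock-treated and 7.31 to 7.94 in imiquimod-treated knockouts, and mock replicate 1, the array with high Exosc8, Exosc9 and Dis3, was the highest mock array at 7.47. In controls it was 6.02 to 7.17 with mock and 6.86 to 7.45 with imiquimod. A fit with this mean as a covariate can take up part of the treatment difference. In knockouts 15.5% of all genes passed in that fit, against 20.8% without the covariate. With the list mean as a covariate, which itself rose with imiquimod and was added after the data were seen, Exosc8 differed by 0.16 in knockouts (adjusted p = 0.546), Exosc1 by 0.07, Exosc9 by -0.07 and Dis3 by -0.10. In the same fit Parn, Pan3, Ddx6, Xrn1, Dcp1b, Rc3h1, Rc3h2 and Zc3h12a kept their calls in knockouts, while Cnot6l (0.31, adjusted p = 0.0864) and Xrn2 (0.04) did not, and Cnot4 (-0.43) and Tia1 (-0.91) also passed.

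**Figure D3:**
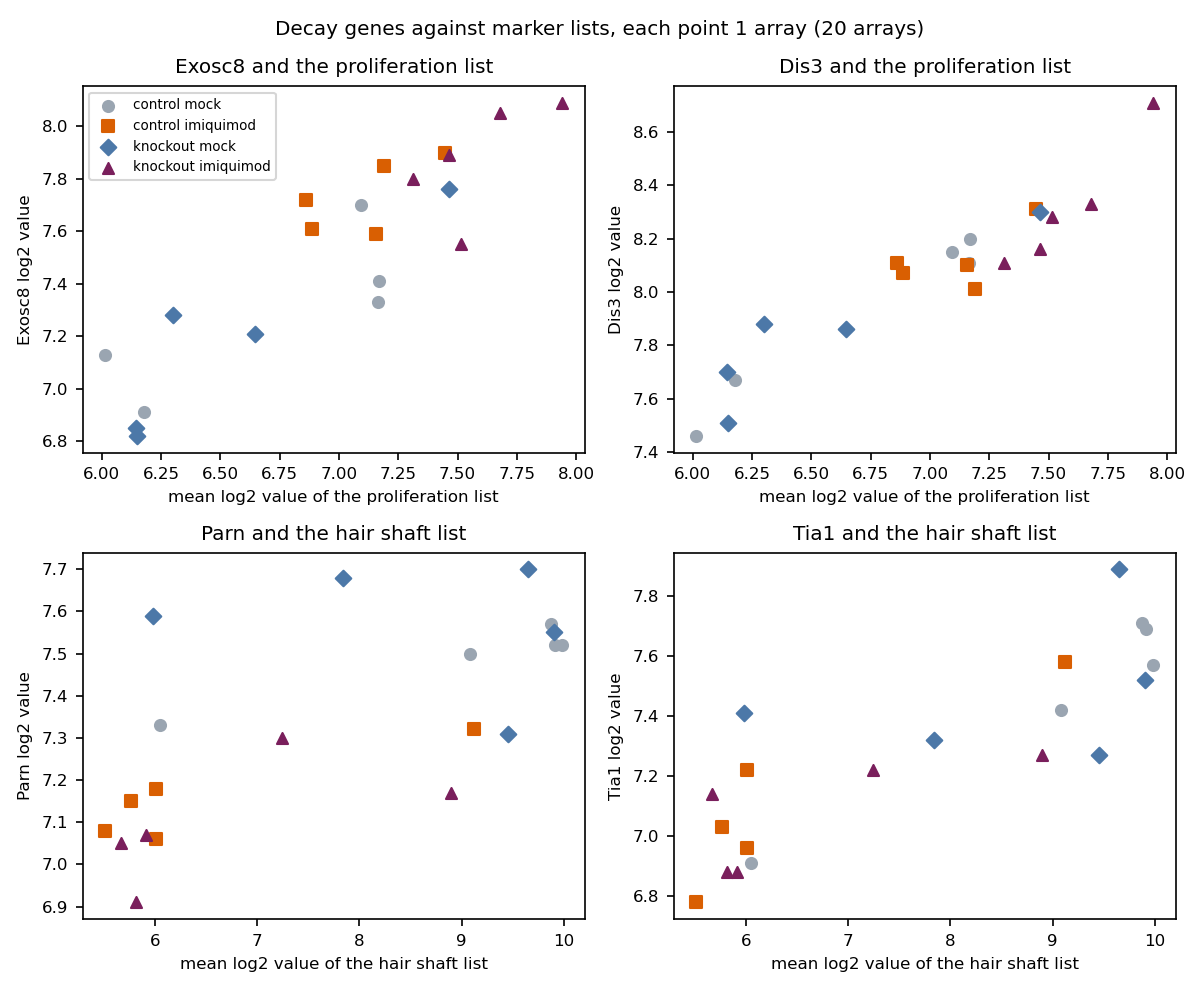
Each point is 1 array. The upper panels plot the log2 values of Exosc8 and Dis3 against the mean log2 value of the proliferation list, and the lower panels plot Parn and Tia1 against the mean of the hair shaft list; axes do not start at 0. The imiquimod-treated knockout arrays lie at 7.31 to 7.94 on the proliferation axis, and 1 array of each group lies far from the other arrays of its group on the hair axis.

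Among proteins that bind poly(A) or AU-rich elements, 1 of 6 rose in knockout skin (16.7%, against 20.8% of all genes called). In controls 0 passed, against 10.8% of all genes. Pabpc1, the cytoplasmic poly(A)-binding protein, read 7.04, 6.62, 6.59, 6.82 and 7.02 with mock and 7.42, 7.22, 7.17, 7.28 and 7.04 with imiquimod in knockouts. The groups touched at 7.04, and the rise was 0.41 ± 0.13 (SE, 5 arrays per group, adjusted p = 0.0271), with a difference of 0.10 in controls (adjusted p = 0.728). The call ended without any one of 5 knockout arrays (mock replicates 2 and 3, imiquimod replicates 1, 2 and 4, adjusted p = 0.0507 to 0.0766) and without the 4 arrays farthest in hair genes (0.30, adjusted p = 0.114), and with the proliferation covariate the difference was 0.0033.

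Khsrp and Hnrnpd, decay-promoting AU-rich element binders, differed by 0.27 and 0.23 in knockouts, and Elavl1 (HuR), which stabilises such messages, by 0.18. Their adjusted p values were above 0.05, as were those in controls, where the differences were 0.03, 0.07 and -0.03. A second Hnrnpd probe set, dimmer than the one used, did pass in knockouts (0.56, adjusted p over all probe sets = 0.0431). Tia1, a stress granule protein, lay at -0.35 in controls (adjusted p = 0.194) and -0.40 in knockouts (adjusted p = 0.0854), and its relative Tial1 at -0.002 and -0.08.

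Regnase-1 and the Roquins, which destroy messages carrying stem-loops, moved apart. Zc3h12a read 5.94, 5.74, 6.24, 5.92 and 6.42 in mock-treated controls and 7.59, 7.57, 7.36, 7.68 and 6.87 in imiquimod-treated controls. In knockouts it read 6.11, 6.46, 6.31, 6.35 and 6.34 with mock and 7.67, 7.98, 7.55, 7.74 and 7.94 with imiquimod. Every imiquimod array lay above every mock array of its genotype. The rise was 1.36 ± 0.14 in controls (2.57-fold, adjusted p = 1.67e-06) and 1.46 ± 0.14 in knockouts (2.75-fold, SE, n = 5 per group, adjusted p = 4.53e-07). Zc3h12a was the only member called at 2-fold or more in either comparison.

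Rc3h1, encoding Roquin-1, read 9.09, 9.18, 9.28, 8.97 and 8.92 in mock-treated and 8.48, 8.71, 8.41, 8.51 and 8.86 in imiquimod-treated controls. In knockouts it read 9.07, 8.94, 8.94, 9.12 and 9.18 with mock and 8.74, 8.45, 8.52, 8.66 and 8.62 with imiquimod. The treatments did not overlap in either genotype. The fall was 1.41-fold in controls (-0.49 ± 0.09, adjusted p = 0.00133) and 1.37-fold in knockouts (-0.45 ± 0.09, SE, 5 arrays per group, adjusted p = 0.00161). The paralogue Rc3h2 fell by 0.25 ± 0.09 in knockouts (adjusted p = 0.0474), close to the threshold, and leaving out any of 12 arrays ended that call (adjusted p = 0.0513 to 0.118). These were control mock replicates 1, 2 and 4, control imiquimod replicates 1 and 2, knockout mock replicates 1, 2, 4 and 5, and knockout imiquimod replicates 2, 3 and 5. Fitting only the 2 knockout groups also ended it (adjusted p = 0.0645), as did centring each array on its median (-0.21, adjusted p = 0.102). In controls it lay at -0.19 (adjusted p = 0.187).

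In controls, Pan3, Parn, Ddx6 and Rc3h1 were lowest of the mock arrays in replicate 5 and highest of the imiquimod arrays in replicate 5. These arrays stood apart from their groups in hair shaft markers. Exosc2 (6.03 and 6.70) and Dis3 (7.46 and 8.31), which did not pass in controls, had the same pattern. In knockouts Pan3 and Ddx6 were lowest in mock replicate 3, the array low in hair genes. Parn was not (7.59, against 7.31 in replicate 4). The mean of 25 hair shaft genes was 9.09 to 9.98 in mock-treated controls except replicate 5 (6.05), and 5.52 to 6.01 in imiquimod-treated controls except replicate 5 (9.12). In knockouts it was 7.84 to 9.91 with mock except replicate 3 (5.98), and 5.66 to 7.24 with imiquimod except replicate 1 (8.89). All 25 were lower with imiquimod in both genotypes (median differences of -2.62 and -1.91). A fit with their mean as a covariate can therefore take up part of the treatment difference. With the list mean as a covariate, Pan3, Parn and Ddx6 no longer passed in controls (differences of -0.15, -0.24 and -0.17, adjusted p = 0.252, 0.146 and 0.191). In knockouts they passed (adjusted p = 0.00283, 0.0028 and 0.0347). In controls Rc3h1 (-0.33), Cnot6l (0.39) and Zc3h12a (1.11) passed in that fit, as did Exosc9 (0.52) and Pabpc1 (0.36), and in knockouts Rc3h2 did not (-0.13). Cnot6 (0.32), Exosc2 (0.48), Hnrnpd (0.34) and Khsrp (0.41) passed as well in knockouts in that fit (adjusted p = 0.0479, 0.00448, 0.0101 and 0.000939), making 12 rises and 6 falls. There 23.8% of all genes passed, against 20.8% without the covariate. Without the 4 arrays named above, a choice made after the data were seen, Pan3, Parn and Ddx6 fell in controls by 0.38, 0.41 and 0.32 (adjusted p = 0.000933, 0.00637 and 0.00481), and Xrn1, Tia1 and Rc3h2 also passed there. Neutrophil markers rose for 4 of 11 in controls, where 2 had a negative difference, and for 10 of 11 in knockouts. Their list mean went from 4.25 to 4.40 with mock to 4.88 to 5.93 with imiquimod in controls. In knockouts it went from 4.33 to 4.68 up to 6.16 to 8.08. S100a8 and S100a9 stand both in this list and in that of activated keratinocytes. The part of neutrophils in the rise of Zc3h12a was not tested. Fibroblast markers fell, 5 of 8 in controls and 4 of 8 in knockouts. Their list mean went from 9.69 to 10.9 with mock to 9.47 to 9.66 with imiquimod in controls, and from 9.78 to 10.6 to 9.29 to 9.82 in knockouts, and their part in the falls was not tested. Skeletal muscle markers fell for 6 of 10 in knockouts, where the list mean went from 8.83 to 9.65 down to 7.86 to 8.71, and for 0 in controls (8.55 to 9.97 and 8.68 to 9.68). In each genotype 1 muscle marker rose. Adipocyte markers fell for 4 of 7 in knockouts (7.68 to 9.42 against 6.78 to 7.67) and for 1 in controls. Activated keratinocyte markers rose for 7 of 8 in each genotype, from 5.68 to 6.56 up to 8.40 to 10.4 in controls and from 6.18 to 7.37 up to 10.6 to 11.01 in knockouts. Monocyte and macrophage markers rose for 3 of 11 in controls and 4 of 11 in knockouts, and T cell markers fell for 0 and 2 of 7. The part of these cell types in the members' changes was not tested.

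The next comparisons asked whether loss of Zfp36 in keratinocytes changed the machinery. No member passed in limma, in mock-treated or in imiquimod-treated skin. With mock, 0 of 44 were called (0.00902% of all genes were) and 1 lay at an unadjusted p under 0.05 (2.27%, against 3.19% of all genes). Differences ran from -0.11 to 0.26. The 95% intervals of all 44 members lay within 1 on the log2 scale, and those of 43 within 0.5. The smallest p values belonged to Edc4, a scaffold of decapping (0.21, adjusted p = 0.999), Zc3h12a (0.26) and Dcp1b (0.14).

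Under imiquimod 0 of 44 members were called (0.546% of all genes were) and 6 lay at an unadjusted p under 0.05 (13.6%, against 10% of all genes). Tob1 read 8.78, 9.02, 8.71, 9.07 and 8.73 in controls and 8.50, 8.49, 8.81, 8.31 and 8.65 in knockouts, a difference of -0.31 ± 0.10 (SE, n = 5 per group, adjusted p = 0.245), and the groups overlapped through knockout replicate 3. Khsrp differed by 0.27 (adjusted p = 0.321). Zc3h12a differed by 0.36, with a 95% interval of 0.06 to 0.66 (adjusted p = 0.363), and its groups overlapped. The others were Lsm1 (0.21), Exosc5 (0.23) and Xrn1 (-0.20). The genotypes overlapped for all 44 members, while 2.47% of all genes did not overlap. All 44 intervals lay within 1 on the log2 scale and 39 within 0.5, the widest bound being that of Zc3h12a. For comparison, Tnf, a classical message bound by tristetraprolin, was higher in knockout than control skin under imiquimod by 0.70 (6.15 against 6.85, adjusted p = 0.0286).

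**Figure D4:**
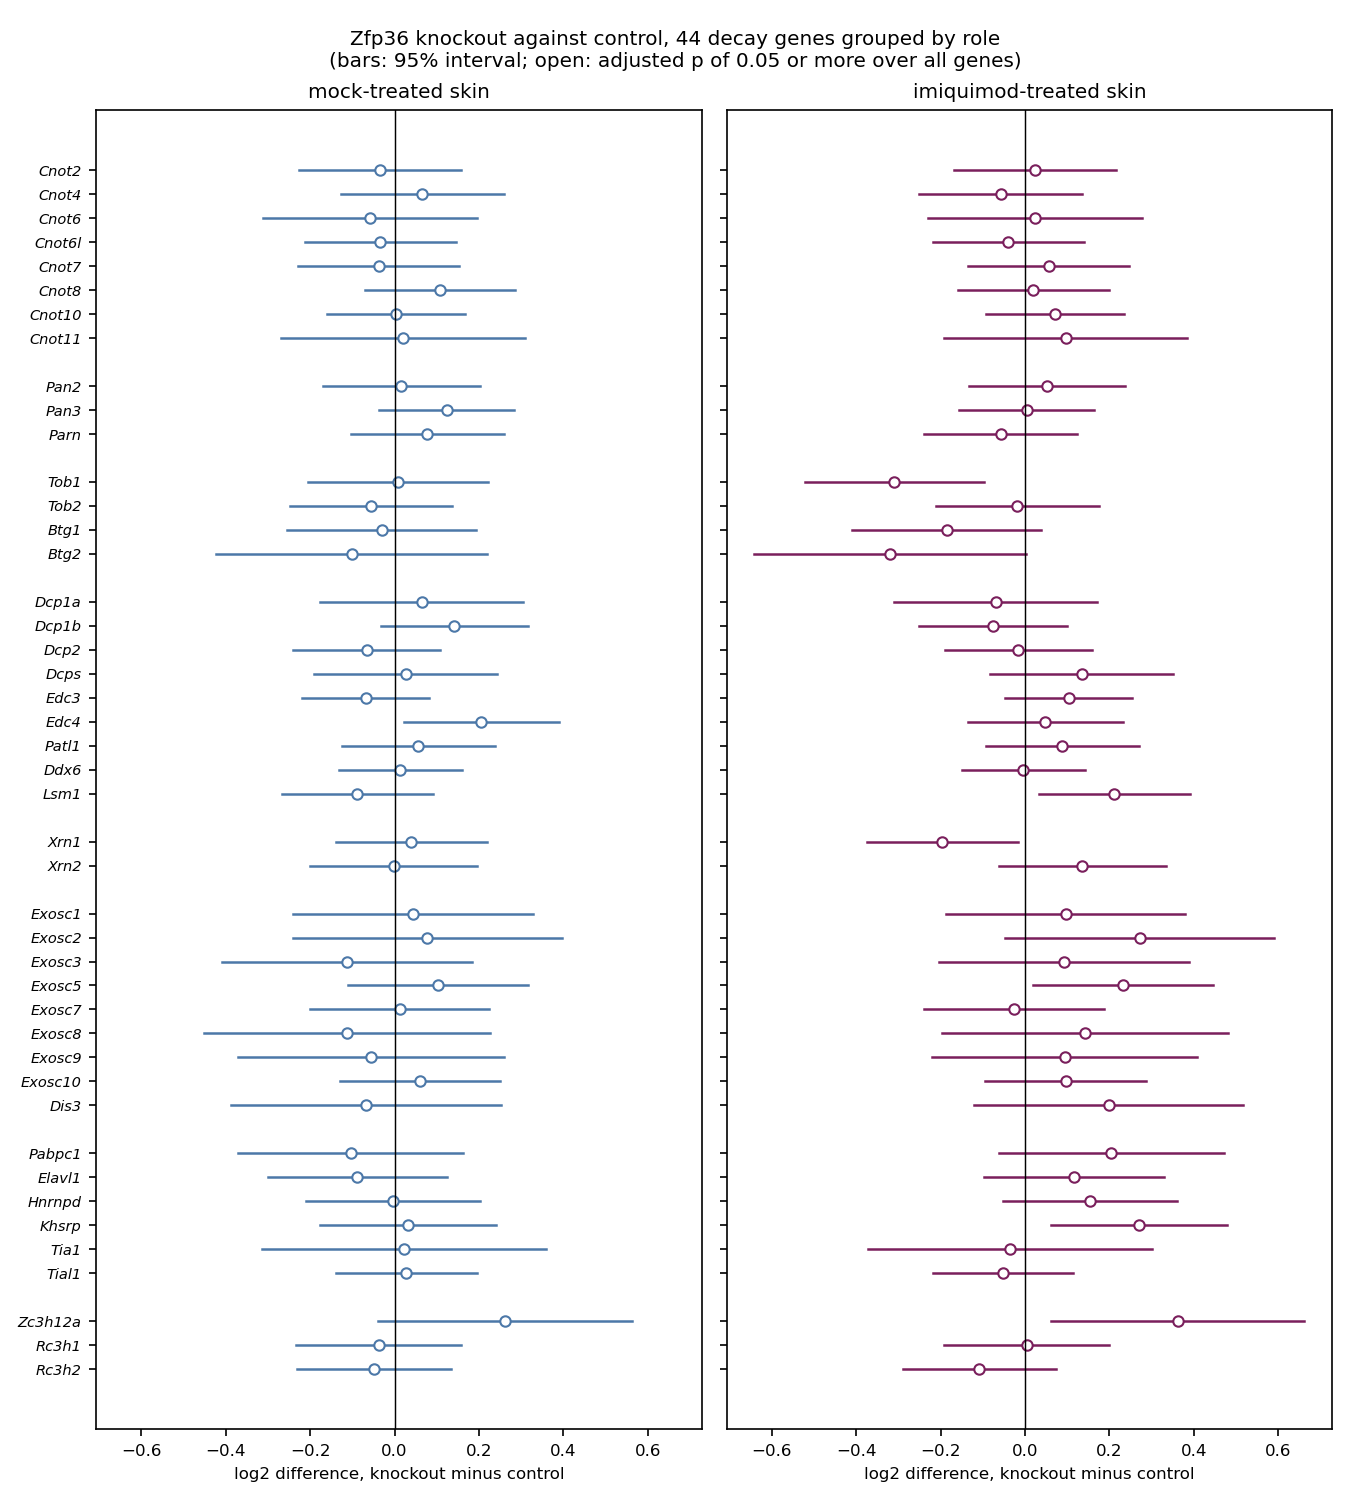
Log2 difference of knockout minus control for the 44 measured decay genes, grouped by role, in mock-treated (left) and imiquimod-treated skin (right). Points are differences of group means (5 arrays each) and bars are 95% intervals. All points are open, as no member passed an adjusted p of 0.05 over all genes, and the differences lie between -0.32 and 0.36.

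Imiquimod called 6 members in both genotypes, 9 in knockouts and not in controls (Dcp1b, Xrn1, Xrn2, Exosc1, Exosc8, Exosc9, Dis3, Pabpc1 and Rc3h2), 0 in controls and not in knockouts, and 29 in neither. The difference between the responses was itself tested, and 0 of 44 members passed (0.018% of all genes did), so none of the 9 was shown to respond differently by genotype. At an unadjusted p under 0.05 there were 2 members (4.55%, against 6.75% of all genes). These were Lsm1, whose response was 0.30 ± 0.12 greater in knockouts (adjusted p = 0.692), and Tob1, at -0.32 ± 0.14 (SE, adjusted p = 0.728). Xrn1 followed at -0.24 (adjusted p = 0.756). The 95% intervals of 31 of the 44 members lay within 0.5 on the log2 scale.

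Other genes of the same pathways, 78 measured of 89 listed, were fitted in the same way: 7 rose and 4 fell with imiquimod in controls (14.1%, against 10.8% of all genes), and 17 rose and 8 fell in knockouts (32.1%, against 20.8%). The counts of their smaller lists below are read against the same shares of all genes. None passed between genotypes or in the difference of responses. The tristetraprolin relatives Zfp36l1 and Zfp36l2 did not pass in any comparison, with differences of -0.006 and 0.11 for imiquimod in controls and 0.19 and -0.05 in knockouts. In a list of other deadenylases and related factors, 1 of 6 rose in controls, and in knockouts 3 rose and 1 fell. Pde12, a mitochondrial 2′-phosphodiesterase that also removes poly(A), went from 6.52 to 7.06 up to 7.82 to 8.30 in controls and rose by 1.35 (2.54-fold, adjusted p = 4.83e-07) and by 1.38 in knockouts (adjusted p = 2.34e-07). Noct, a CCR4-related enzyme under circadian control, read 6.31, 5.51, 5.68, 5.97 and 6.44 with mock and 7.11, 7.47, 6.70, 7.53 and 6.97 with imiquimod in knockouts and rose 2.26-fold (adjusted p = 0.000312). In controls it differed by 0.33 (adjusted p = 0.364). Under imiquimod Noct was 0.80 higher in knockouts than controls with no overlap between the groups, and it did not pass over all genes (adjusted p = 0.09). The CCR4-NOT subunit Cnot9 rose by 0.39 in knockouts (adjusted p = 0.0475).

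In the other groups of that list, microRNA silencing genes fell where they passed, 2 of 9 in controls and 3 of 9 in knockouts. Ago4, an Argonaute, lay at -0.75 in control and -1.21 in knockout skin (adjusted p = 0.016 and 0.000146), and Ago1 at -0.38 and -0.47. Tnrc6c, a scaffold that joins Argonaute to CCR4-NOT, fell by 0.44 in knockouts. Among other AU-rich or stem-loop binders, 2 of 19 rose in controls, and in knockouts 4 rose and 1 fell. Zc3h12c, a relative of Regnase-1, rose by 0.76 and 0.98 (adjusted p = 0.00211 and 0.000106), Pcbp1 by 0.29 and 0.48, and Ncl, encoding nucleolin, by 0.66 in knockouts (adjusted p = 0.00194).

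Exosome cofactors gave 2 rises and 1 fall of 13 in controls and 3 rises and 1 fall in knockouts. The superkiller complex subunits Ttc37 and Wdr61 rose in both genotypes, by 0.45 and 0.59 in controls and by 0.66 and 0.65 in knockouts. Dis3l2, a cytoplasmic exonuclease that acts apart from the exosome, fell by 0.38 and 0.44. Of 13 other decapping and Lsm ring genes, the ring subunits Lsm4, Lsm5 and Lsm7 rose by 0.50, 0.48 and 0.31 in knockouts, and Pnrc1, a decapping activator, fell by 0.46 in controls. Nonsense-mediated decay genes had 0 of 7 called in controls, and in knockouts the kinase gene Smg1 and the endonuclease gene Smg6 fell (-0.23 and -0.43) and Smg8 rose (0.28). Of 7 kinases and phosphatases acting on tristetraprolin, Mapk14 (p38 alpha) rose by 0.35 in each genotype, Mapk11 by 0.44 and 0.27, and Mapkapk2, the kinase that phosphorylates tristetraprolin, by 0.25 in knockouts.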

How the data were processed

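Per the labels' protocols, skin RNA was extracted with Trizol, cleaned on a column and labelled (200 ng) by the Affymetrix WT PLUS protocol. The deposited values, 1 column per array for 41345 probe sets, were summarised by the authors and were taken as log2 from their range (1.41 to 13.33). The sources used here state neither log base, normalization nor software. Detection calls were not used, so a dim gene's fold is uncertain. A platform annotation named the probe sets: 23521 had 1 symbol, 1814 several and 16010 none, and the brightest single-symbol probe set per gene left 22180 genes.

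The limma 3.58.1 package in R 4.3.3 fitted the differences (lmFit, then eBayes) with 1 mean per group, all 20 arrays, 16 residual degrees of freedom, two-sided tests, Benjamini-Hochberg adjustment over 22180 genes and a threshold of 0.05. Single genes were also compared by exact two-sided permutation. The script was tested on simulated data. The number of arrays limits the precision (median standard error of a difference 0.11). No pair of arrays was identical.

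The members, pathway lists, marker lists and alternatives were chosen with earlier results of these data known. Named were members past the threshold (the 3 smallest p where none passed), each role's highest and lowest probe set, and at most 3 genes per pathway list and comparison past it, with Zfp36, its relatives and Tnf. Other names were added after their values were seen. The labels do not state that replicate numbers pair the animals, and arrays were treated as unpaired. Deviations of same-numbered arrays correlated from -0.709 to 0.516, which cannot tell whether a number marks a litter or day. Alternatives were other fits, scalings, probe set rules and filters, marker lists as covariates, the replicate number as a block and each array left out. Promoter windows came from RefSeq, assembly GRCm38.p6.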

Additional observations from a re-analysis of the deposited data

Results flagged for a closer look

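Of 176 sets of 5 arrays (44 members in 4 groups), 10 held an array far from the other 4, by the gap to the nearest value relative to the group's range, and chance flags about 1 in 20 such groups. They fell on 9 arrays, with 2 on control mock replicate 1 and 1 on each of the others. In mock-treated controls, Cnot6 read 8.14 in replicate 5 against 8.59 to 8.71, and replicate 1 read 5.82 for Dcps (5.49 to 5.58 in the others) and 6.77 for Patl1 (7.07 to 7.16). Control mock replicate 5 was also the lowest of its group in the hair shaft list (6.05) and the proliferation list (6.02). Its mean over the CCR4-NOT members (7.45) was the lowest of its group as well. So were those over the PAN and PARN (7.72), decapping (6.67), exonuclease (7.87), exosome (6.70) and RNA-binding members (7.38). Those over the Tob and Btg adaptors (7.505) and over Regnase-1 and the Roquins (7.95) were not. In imiquimod-treated controls, Exosc10 read 6.79 in replicate 4 against 7.12 to 7.25, and Pabpc1 read 7.20 in replicate 5 against 6.95 to 7.01.

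In mock-treated knockouts, Pan3 read 8.91 in replicate 3 against 9.19 to 9.20, and that array was the lowest of its group in hair shaft genes (5.98). Dcp2 read 6.88 in replicate 4 against 7.14 to 7.21, and Hnrnpd read 9.22 in replicate 1 against 8.81 to 8.89. Replicate 1 was the highest of its group in proliferation genes (7.47). In imiquimod-treated knockouts, Cnot10 read 7.26 in replicate 4 against 6.93 to 6.99, and Dcp2 read 7.01 in replicate 3 against 7.14 to 7.19. Replicate 4 was the highest in proliferation genes (7.94) and neutrophil genes (8.08).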

How the results depend on the processing

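No member passed between genotypes or in the difference of responses under any of the alternatives run. Zc3h12a and Rc3h1 in both genotypes, Cnot6l in controls, and Pan3, Parn, Dcp1b, Ddx6 and Xrn1 in knockouts passed under all 31 of them. For imiquimod in controls, the count was 4 rises and 1 fall with the hair list as a covariate and 7 falls without the 4 arrays farthest in hair genes (2 and 4 in the fit reported). It was 3 rises and 6 falls with the proliferation list as a covariate, where Btg2, Xrn1 and Tia1 also passed. For knockouts, 1 member rose and 9 fell with the proliferation list as a covariate, against 8 and 7, with Exosc9 at -0.066 and Dis3 at -0.10, and Cnot4 and Tia1 also passing. With the hair list as a covariate 12 rose and 6 fell, with only the groups compared 6 rose and 7 fell, and without the 4 arrays 6 rose and 9 fell. The share of all genes called moved as well. In controls it was 9.23% with the hair list, 16.2% without the 4 arrays and 15.5% with the proliferation list (10.8% in the fit reported). In knockouts it was 15.5% with the proliferation list and 23.8% with the hair list (20.8% in the fit reported). It was 18.7% there with only the groups compared and 21.3% without the 4 arrays. The median difference over the members, 0.027 in controls, was -0.0325 there without control mock replicate 5 and -0.0375 without the 4 arrays. It was -0.034 with weights for each array and -0.053 with the proliferation list. In knockouts the median of 0.091 became -0.11 with the proliferation list, where 29 of 44 members kept their sign. Leaving out each array gave 2 to 3 rises and 3 to 6 falls in controls, and 3 to 10 rises and 6 to 8 falls in knockouts. Over all genes the share called ran from 7.3% to 13.5% in controls and from 16.5% to 22.3% in knockouts. In knockouts the 3 rises came without knockout mock replicate 2, knockout imiquimod replicate 2 or knockout imiquimod replicate 4. There were 4 without knockout mock replicate 4 and 5 without knockout mock replicate 3 or 5. In these fits 16.5% to 19.5% of all genes were called. The cause was not tested. With the replicate number as a block, controls gave 2 rises and 4 falls and knockouts 6 and 6, Exosc1 (adjusted p = 0.0706), Exosc9 (0.0607) and Rc3h2 (0.0628) no longer passing. In that fit 9.18% of all genes were called in controls and 19.1% in knockouts. Deviations of same-numbered arrays correlated over 0.1 in 14 of 30 pairs, and 2 of 20 arrays correlated best with their own number. These values do not settle whether the numbers pair the animals. Without background signals, folds of dim genes have no known bound.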
